A study of Bos taurus with 30 samples.

Results

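The miR-181 family of mature miRNAs was examined in bull calves of the Holstein-Friesian breed, in the anterior lobe of the pituitary. The family was taken as the rows for bta-miR-181a, bta-miR-181b, bta-miR-181c and bta-miR-181d, which are 4 of the 1030 mature miRNAs measured and the only 4 that carry the miR-181 name. All 4 passed the filter on low counts that left 419 miRNAs for testing. The rule used names only and no measured value. Small RNA was sequenced from 30 calves aged 12 weeks, each giving 1 library. Feeding began to differ at 2 weeks, after which 15 calves on the high plane of nutrition (HI) were given 1.5 kg of milk replacer, made up to 10 L, per day and concentrates without restriction. The 15 calves on the moderate plane (MOD) were given 0.5 kg of milk replacer, made up to 4 L, and at most 0.5 kg of concentrate per day. Breed, sex, age at sampling and tissue were shared by both groups, and the calves came from several farms and sires. Before assignment to a diet they were blocked on age, bodyweight, farm and sire.

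A miRNA is a short RNA that guides the Argonaute protein to messenger RNAs carrying a match to its seed, the bases near its 5′ end, and so lowers their translation and stability. The members of the miR-181 family share one seed and differ further along, so that they are predicted to bind largely the same targets. The family is conserved across vertebrates and is best known from the immune system, where miR-181a tunes the response of the T cell receptor in the thymus. In the vessel wall miR-181b is known to restrain NF-kappaB signalling, and the family is also abundant in brain.

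The RefSeq annotation of ARS-UCD2.0 held 6 genes for the 4 mature miRNAs. This assembly is not the one the reads were aligned to, and it was used only for names and neighbours. Mature miR-181a has a pair of genes and so has miR-181b, and each miR-181a gene lies next to a miR-181b gene. MIR181A-2 and MIR181B-2 overlap NR6A1, which encodes germ cell nuclear factor, and the long non-coding RNA gene LOC100848407. The gene before MIR181A-2 is NR5A1, which encodes steroidogenic factor 1, a transcription factor needed for the gonadotrophs of the anterior pituitary. MIR181A-1 and MIR181B-1 are neighbours and overlap no other annotated gene. MIR181C and MIR181D are neighbours and overlap NANOS3, which encodes an RNA-binding protein of germ cells. The mature reads of miR-181a and miR-181b cannot be assigned to one gene of each pair. The recovered read number of miR-181a was a whole number in 15 libraries and ended in 0.5 of a read in 15, and that of miR-181b was whole in 12 and ended in 0.5 of a read in 18. The read numbers of miR-181c and miR-181d were whole in all 30 libraries.

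The tissue carried the miRNAs of endocrine pituitary cells in every library. The summed level of 7 such miRNAs (miR-375, miR-7 and the miR-200 family members miR-200a, miR-200b, miR-200c, miR-141 and miR-429) was 136048 to 232042 CPM (reads per 1000000 reads, scaled by TMM factors) in HI calves and 156618 to 230380 CPM in MOD calves. Reads on miRNAs ranged from 6650492 to 11086524 per library. Calves are labelled with numbers, and the libraries were divided into the 9 with the highest of them and the remaining 21. The 9 came from 5 HI and 4 MOD calves, and the 21 from 10 HI and 11 MOD calves. This division was made with earlier results of these data known, and how far levels differ between the sets over all miRNAs was not tested here. The labels give no reason for the division, so values within both sets are given beside the pooled ones. The normalisation factors of the libraries ran from 0.917 to 1.21, and the highest belonged to HI calf 15. They averaged 1.024 ± 0.072 in HI and 0.979 ± 0.031 in MOD calves (SD, 15 calves each), a difference that was not tested.

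The family was an abundant part of the miRNA pool. Together the 4 miRNAs took 4.56% ± 0.435 (SD, n = 30) of the miRNA reads of a library, from 3.71% in MOD calf 6 to 5.60% in MOD calf 8. Of the reads of the family, miR-181a held 62.3% ± 3.39, miR-181c 33.0% ± 3.31, miR-181b 2.40% ± 0.178 and miR-181d 2.34% ± 0.268 (SD, n = 30). These are shares of reads. Adapter ligation favours some small RNA sequences over others, and its part in the differences between members was not tested.

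**Figure D1:**
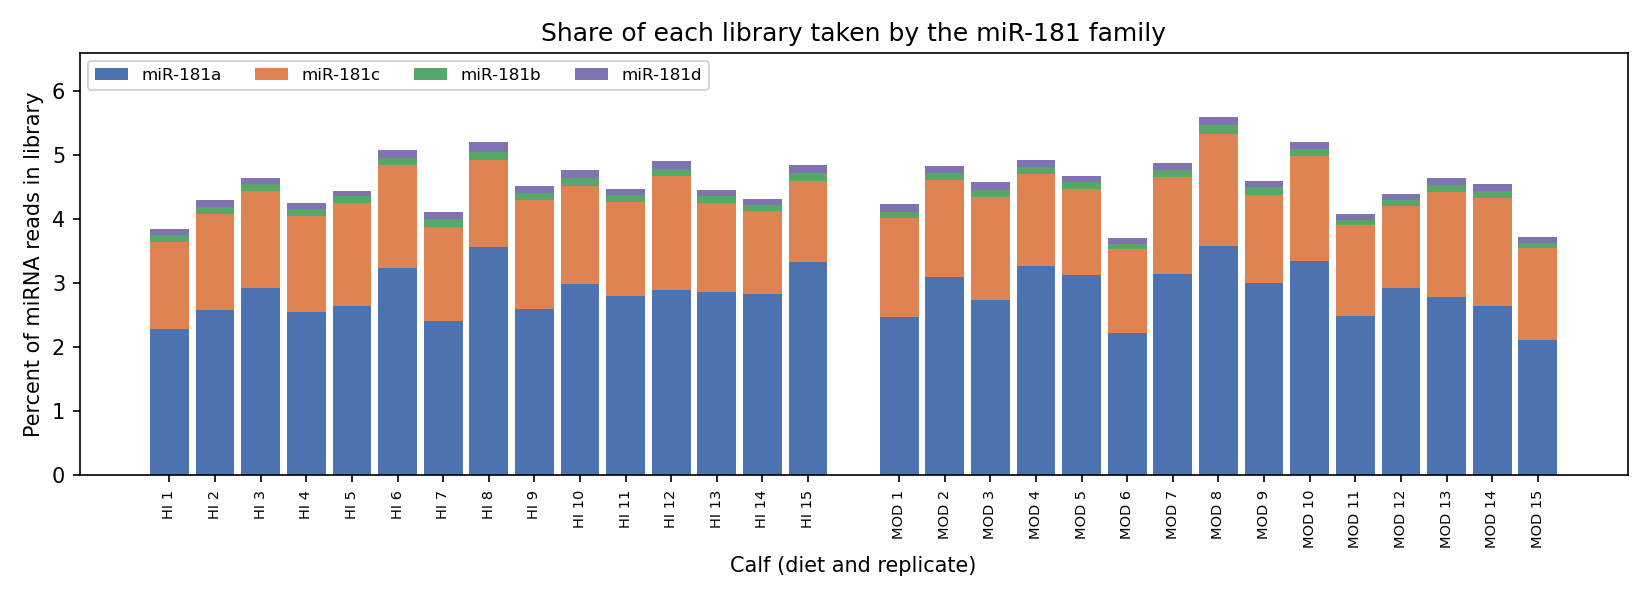
Percent of the miRNA reads of each library (vertical axis) that fell on each member of the miR-181 family, stacked, for the 15 HI and 15 MOD calves (horizontal axis). The family took 3.71% to 5.60% of a library, and miR-181a with miR-181c made up nearly all of each bar.

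Expression of miR-181a ranked 9 among the 419 miRNAs tested, with a mean of 28500 CPM, between miR-127 (30626 CPM) and miR-191 (28243 CPM). Expression of miR-181c ranked 20, at 15007 CPM, between miR-141 (15042 CPM), an epithelial miRNA, and miR-30a-5p (12418 CPM). The remaining members ranked 68 (miR-181b, 1094 CPM) and 69 (miR-181d, 1061 CPM), next to each other, with miR-221 above (1195 CPM) and miR-153 below (1023 CPM).

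The order of the levels was the same at its top in every calf. The pairs compared were neighbours in mean level over these same calves, so the p-values are no independent evidence for the order. Expression of miR-181a was above that of miR-181c in 30 of 30 calves, by 1.89-fold on average and by 1.47 to 2.63-fold in single calves (log2 ratio 0.92 ± 0.23, SD, n = 30; two-sided sign-flip permutation test, p = 1e-05, the smallest it can give). Expression of miR-181c was above that of miR-181b in 30 of 30 calves, by 13.7-fold on average (log2 ratio 3.77 ± 0.19, SD, n = 30; same test, p = 1e-05, again the smallest it can give). The bottom of the order was not settled. Expression of miR-181b was above that of miR-181d in 19 of 30 calves, with ratios from 0.839 to 1.24, and the mean log2 ratio of 0.05 was smaller than its SD of 0.15 (sign-flip permutation test, p = 0.0896). Within the set of 21 libraries this ratio was 0.05 ± 0.16 (sign-flip permutation test, p = 0.190) and within the set of 9 it was 0.05 ± 0.11 (exact sign-flip permutation test, p = 0.262).

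The question the feeding trial put to these miRNAs was whether HI and MOD calves differed. In limma on log2(CPM + 1) none of the 4 members passed the thresholds used for the series, a Benjamini-Hochberg false discovery rate (FDR) under 0.1 and a fold change over 1.5 in either direction. At FDR < 0.1 alone limma called 0 of 4 members, and 0 of 4 had an unadjusted p under 0.05. The same fit called 15 of all 419 miRNAs at FDR < 0.1, or 3.58%, of which 8 were higher and 7 lower in HI calves, a split that became 16 and 2 on total counts, 19 and 1 when the 5 most abundant miRNAs were left out of library sizes, and 3 and 26 with upper quartile factors. It called 2 with the fold change added, or 0.477%, while 53, or 12.6%, had an unadjusted p under 0.05. Applied to recovered reads, edgeR's quasi-likelihood test and the Wald test of DESeq2 also called 0 of 4 members, against 4.77% and 5.73% of all miRNAs tested, with 0 of 4 at an unadjusted p under 0.05 in each. The median log2 fold change of the 4 members was -0.04, against 0.02 over all miRNAs tested.

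Expression of miR-181a in HI calves ran from 22818 CPM (calf 7) through a median of 27769 CPM to 33770 CPM (calf 6). In MOD calves it ran from 21233 CPM (calf 15) through 30297 CPM to 36445 CPM (calf 8). The ranges overlapped, and the MOD calves spanned the whole of the HI range, with 3 above the highest HI calf and 2 below the lowest. Its mean was 27654 ± 2821 CPM under HI feeding and 29346 ± 4869 CPM under MOD feeding (SD, 15 calves each). Above the MOD median lay 2 of the 15 HI calves. From limma, the log2 difference was -0.07 with an SE of 0.07 and FDR = 0.816. Its 95% interval ran from a fold of 0.858 to 1.05, so a fall to 1/1.5 of the MOD level and a rise of 1.5-fold lay outside it.

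Expression of miR-181c, the next most abundant member, ran in HI calves from 10503 CPM (calf 15) through a median of 14571 CPM to 17503 CPM (calf 12). In MOD calves it ran from 13115 CPM (calf 6) through 15251 CPM to 17695 CPM (calf 8). Here the lowest values were in HI calves, 2 of which (calves 8 and 15) lay below every MOD calf. These 2 libraries had normalisation factors of 1.15 and 1.21. As a share of miRNA reads, miR-181c was at 1.36% in calf 8 and 1.27% in calf 15, so that calf 15 alone lay below the lowest MOD calf (1.28%). Its mean was 14663 ± 1900 CPM under HI feeding and 15351 ± 1352 CPM under MOD feeding (SD, 15 calves each). From limma, the log2 difference was -0.07 with an SE of 0.06 and FDR = 0.731. The 95% interval ran from a fold of 0.873 to 1.04.

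Expression of miR-181b in HI calves ran from 974 CPM through a median of 1079 CPM to 1172 CPM, and in MOD calves from 870 CPM through 1095 CPM to 1392 CPM. As with miR-181a, the MOD calves reached further in both directions, with 4 above the highest HI calf and 3 below the lowest. The means were 1089.6 ± 69.97 CPM under HI and 1099 ± 135 CPM under MOD feeding (SD, 15 calves each), and limma gave a log2 difference of -0.0048 with an SE of 0.05 and FDR = 0.984. The 95% interval ran from a fold of 0.924 to 1.08.

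Expression of miR-181d in HI calves ran from 870 CPM through a median of 1013 CPM to 1299 CPM, and in MOD calves from 890 CPM through 1065 CPM to 1348 CPM. The ranges nearly coincided, with 1 HI calf below the lowest MOD calf and 1 MOD calf above the highest HI calf. The means were 1056 ± 123.7 CPM under HI and 1065 ± 122 CPM under MOD feeding (SD, 15 calves each), and limma gave a log2 difference of -0.01 with an SE of 0.06 and FDR = 0.970. The 95% interval ran from a fold of 0.910 to 1.08.

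**Figure D2:**
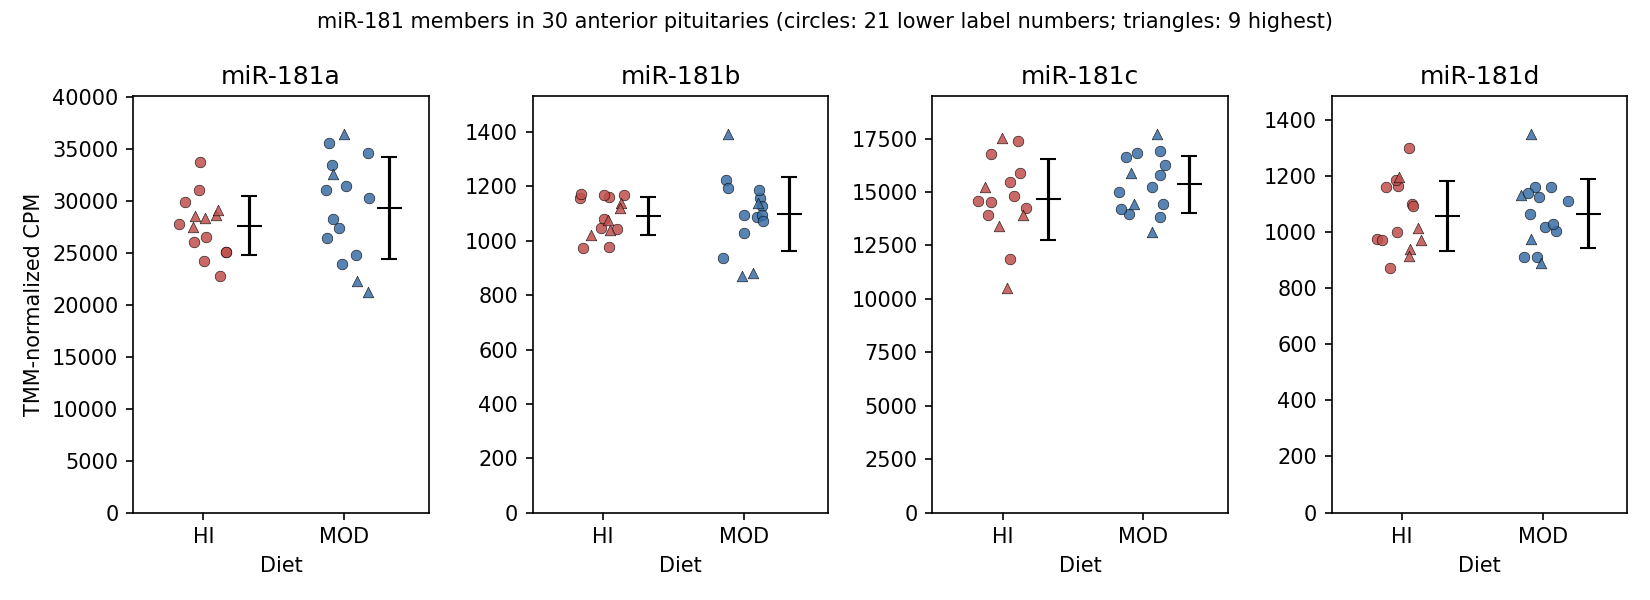
TMM-normalized CPM of each member (vertical axes, from 0) in HI and MOD calves (horizontal axis), with 1 point per calf, circles for the 21 libraries with lower label numbers and triangles for the 9 with the highest, and bars for the mean and SD of 15 calves. The diets overlapped for all 4 members, and MOD calf 8 was the highest calf for each.

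In a bulk tissue, fewer cells of a type and less RNA per cell cannot be told apart. The size of the differences depended on the scaling of the libraries, and for miR-181b and miR-181d so did the sign, which was positive on total counts (0.06 and 0.05). The difference of miR-181a was -0.0098 on total counts and -0.17 with upper quartile factors (FDR = 0.272 from limma), and that of miR-181c was -0.0096 and -0.17 (FDR = 0.194). The interval of each member holds for the deposited TMM scaling. The lowest read number of a member in any library, 6998 for miR-181b, gives a counting error of 1.195%. The coefficient of variation between calves was 9.68% for that miRNA. Variation from library preparation is not part of the counting error and was not measured.

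**Figure D3:**
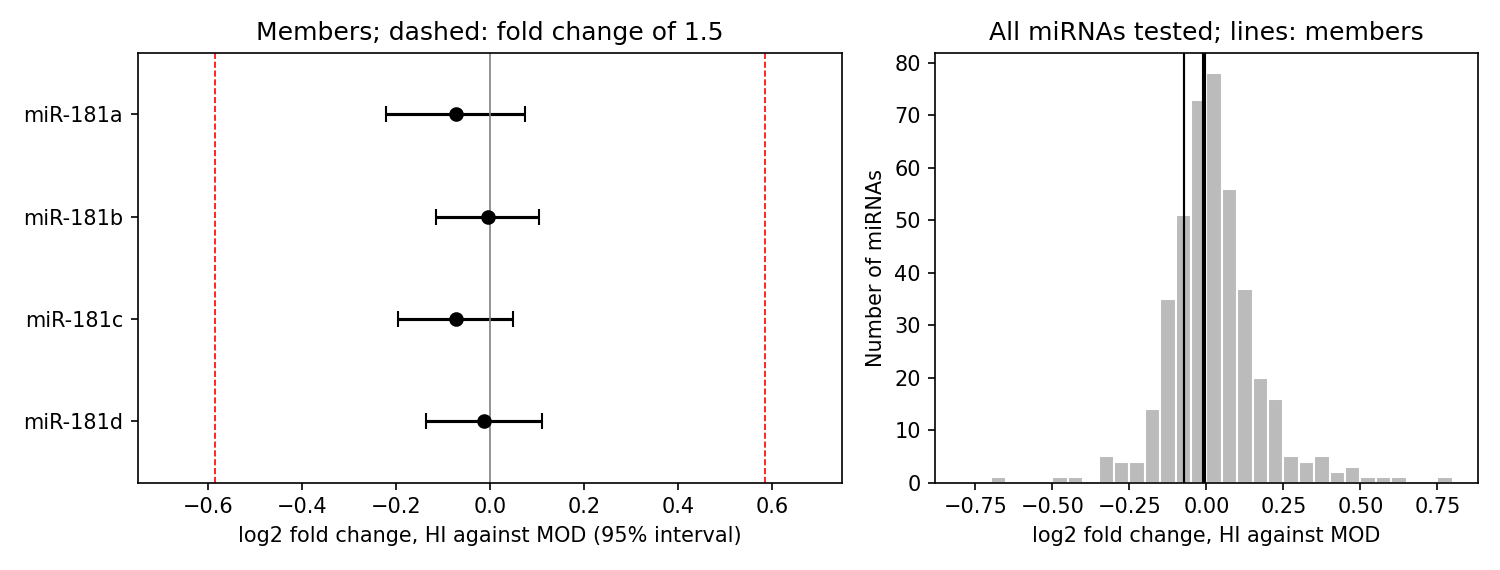
Left, log2 fold change of HI against MOD calves with its 95% interval from limma for each member, and dashed lines at a fold change of 1.5. Right, the number of miRNAs (vertical axis) by log2 fold change over all 419 tested, with vertical lines at the 4 members. Every interval includes 0 and lies inside the dashed lines.

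No member differed between diets past 0.05 within either library set. Within the 21 libraries the log2 differences of HI against MOD were -0.13 for miR-181a (exact permutation test, p = 0.130), -0.02 for miR-181b (p = 0.694), -0.04 for miR-181c (p = 0.463) and 0.03 for miR-181d (p = 0.668). Within the 9 libraries they were 0.06 for miR-181a (exact permutation test, p = 0.706), 0.04 for miR-181b (p = 0.897), -0.13 for miR-181c (p = 0.476) and -0.10 for miR-181d (p = 0.500). None of these 8 comparisons passed 0.05 after adjustment, the lowest adjusted p of these exact permutation tests being 0.807. The test of whether the diet difference changed between the sets gave FDR = 0.855 for miR-181a and higher values for the other members in limma. Over all 419 miRNAs 0 passed FDR < 0.1 in that interaction test, with 21 at an unadjusted p under 0.05.

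The sets themselves overlapped in each member. Expression of miR-181a was 28572 ± 3816 CPM (SD, n = 21) in the 21 libraries and 28331 ± 4652 CPM (SD, n = 9) in the 9. Expression of miR-181c was 15167 ± 1357 CPM (SD, n = 21) and 14633 ± 2266 CPM (SD, n = 9). For miR-181b the values were 1102 ± 79.7 CPM and 1075 ± 156 CPM, and for miR-181d they were 1069 ± 108 CPM and 1042 ± 152 CPM. For each member the coefficient of variation was larger in the 9 libraries, which held MOD calf 8, the highest calf for all 4 members, and MOD calf 15, the lowest for miR-181a and miR-181b. The share of the family in the library of MOD calf 8 was 5.60% and that in MOD calf 15 was 3.72%, and both normalisation factors were close to 1 (0.984 and 0.994).

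The balance between members is free of the scaling of the libraries, as both values of a ratio come from one library. All 6 pairs were compared between diets with a two-sided permutation test. For the neighbours miR-181a and miR-181b the mean log2 ratio was 4.66 ± 0.14 in HI and 4.73 ± 0.10 in MOD calves (SD, n = 15 each), a difference of -0.07 with an SE of 0.05 (permutation p = 0.141, adjusted p = 0.642 over the 6 pairs). For the neighbours miR-181c and miR-181d it was 3.79 ± 0.25 and 3.85 ± 0.10, a difference of -0.06 with an SE of 0.07 (permutation p = 0.399, adjusted p = 0.642). For the most abundant members, miR-181a and miR-181c, it was 0.92 ± 0.24 and 0.92 ± 0.22, a difference of -0.0003 with an SE of 0.08 (permutation p = 0.997). None of the 6 ratios passed 0.05, before or after adjustment. The differences of the other 3 pairs ran from -0.06 to 0.07.

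Within the library sets the ratios differed from the pooled values, and none passed 0.05 there either. For miR-181a to miR-181b the log2 difference of HI against MOD was -0.11 in the 21 libraries (exact permutation p = 0.0755, adjusted p = 0.359 over 6 pairs) and 0.02 in the 9 (exact permutation p = 0.778). For miR-181a to miR-181d it was -0.16 in the 21 (exact permutation p = 0.120, adjusted p = 0.359) and 0.15 in the 9 (exact permutation p = 0.175). The lowest p of all came from miR-181b to miR-181d in the 9 libraries, with a difference of 0.14 and an SE of 0.06 (exact permutation p = 0.0714, adjusted p = 0.429), against -0.05 in the 21 (exact permutation p = 0.513). For miR-181a to miR-181c the values were -0.08 in the 21 and 0.18 in the 9, for miR-181b to miR-181c 0.03 and 0.17, and for miR-181c to miR-181d -0.07 and -0.03. So the ratios of miR-181a to each other member and that of miR-181b to miR-181d had opposite signs in the sets, a difference that was not tested.

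Of the 6 ratios that of miR-181a to miR-181b varied least between calves. It ran from 19.7 to 29.1 and had a log2 SD of 0.13 (n = 30), against 0.15 for miR-181b to miR-181d, 0.19 for miR-181c to miR-181d, 0.19 for miR-181b to miR-181c, 0.21 for miR-181a to miR-181d and 0.23 for miR-181a to miR-181c. The ratio of miR-181c to miR-181d ran from 9.12 to 18.2, although both miRNAs have single, neighbouring genes. The lowest, 9.12, came from HI calf 8.

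Correlations between members across calves were computed within each library set, for 6 pairs in 2 sets, and adjusted over the 12. Expression of miR-181a and miR-181b rose and fell together. Within the 21 libraries Pearson's r was 0.69 (permutation p = 0.00064, adjusted p = 0.00768) and Spearman's rho 0.744 (permutation p = 0.00020, adjusted p = 0.0024). Without the 2 calves farthest from the median of miR-181a, r was 0.604. Within the 9 libraries r was 0.934 (exact permutation p = 0.00148, adjusted p = 0.0089) and rho 0.683 (exact permutation p = 0.0503, adjusted p = 0.201), and r was 0.823 without the 2 farthest calves.

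The pair miR-181c and miR-181d did not pass. Within the 21 libraries r was 0.0699 (permutation p = 0.764, adjusted p = 0.764) and rho 0.34 (permutation p = 0.131, adjusted p = 0.266). Without the 2 calves farthest from the median of miR-181c, r was 0.415, so that the value over the 21 depends on those calves. Within the 9 libraries r was 0.608 (exact permutation p = 0.0832, adjusted p = 0.200) and rho 0.50 (exact permutation p = 0.178, adjusted p = 0.305), and r was 0.782 without the 2 farthest calves. These values depended on the scaling, although the pair passed on neither. On total counts r was 0.236 in the 21 libraries and 0.0019 without the 2 calves farthest on that scale, and in the 9 it was 0.548 and, without 2 calves, -0.212. Whether the correlation of this pair differs from that of miR-181a and miR-181b was not tested.

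Among pairs from different loci, miR-181b and miR-181d were correlated in the 9 libraries, with r = 0.847 (exact permutation p = 0.00226, adjusted p = 0.00904) and rho = 0.883 (exact permutation p = 0.00308, adjusted p = 0.0185). Without the 2 calves farthest from the median of miR-181b, r was 0.584. In the 21 libraries the same pair gave r = 0.213 (permutation p = 0.354, adjusted p = 0.530) and rho = 0.0688 (permutation p = 0.768, adjusted p = 0.768), and r was 0.157 without 2 calves. For the abundant members miR-181a and miR-181c r was 0.111 (permutation p = 0.635, adjusted p = 0.762) and rho 0.177 (permutation p = 0.444, adjusted p = 0.593) in the 21 libraries, with r = -0.0505 without 2 calves. In the 9 libraries the same pair had r = 0.441 (exact permutation p = 0.232, adjusted p = 0.437) and rho = 0.55 (exact permutation p = 0.133, adjusted p = 0.266), with r = 0.602 without 2 calves. The other 2 pairs, miR-181a with miR-181d and miR-181b with miR-181c, had no adjusted p under 0.05 in either set on the deposited TMM scale. For miR-181a with miR-181d this depended on the scaling. In the 9 libraries rho was 0.417 on the TMM scale (exact permutation p = 0.270, adjusted p = 0.404) and 0.867 on total counts (exact permutation p = 0.00451, adjusted p = 0.0135), with r of 0.715 (exact permutation p = 0.0338, adjusted p = 0.101) and 0.740 (exact permutation p = 0.0224, adjusted p = 0.0643).

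**Figure D4:**
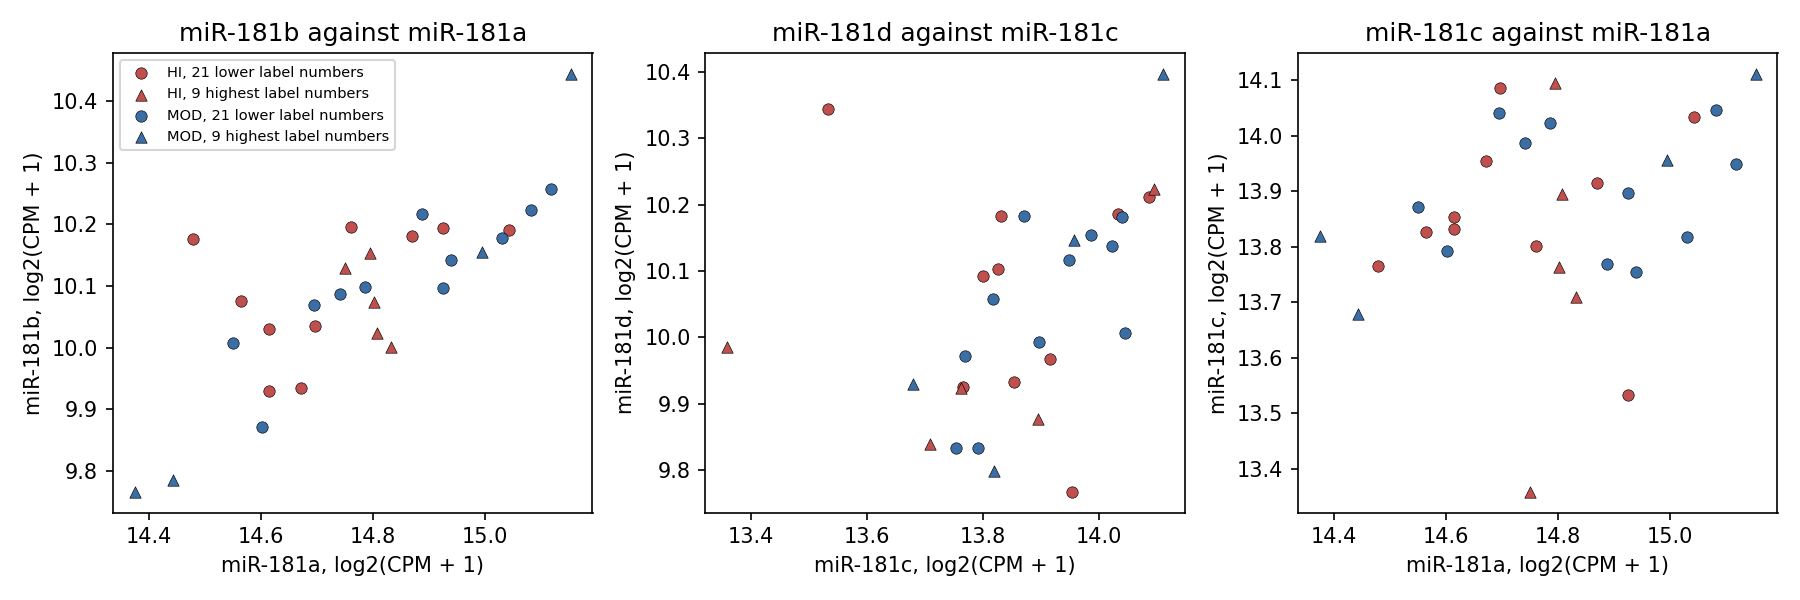
Expression of pairs of members on the log2(CPM + 1) scale, 1 point per calf, red for HI and blue for MOD, circles for the 21 libraries with lower label numbers and triangles for the 9 with the highest. The points of miR-181b against miR-181a lie along a rising line (r = 0.69 in the 21 and 0.934 in the 9 libraries), and those of miR-181c against miR-181a are scattered (0.111 and 0.441).

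As a description of which miRNAs followed each member, Pearson's r was taken over the 30 calves with the means of diet and library set removed. All miRNAs share the library totals, so these values carry no test. Of the 418 other miRNAs tested, the one most like miR-181a was miR-181b, and the one most like miR-181b was miR-181a (r = 0.805). For miR-181c the member most like it, miR-181d, ranked 45 (r = 0.333), and miR-181a ranked 90 (r = 0.234). For miR-181d the closest member was miR-181b, which ranked 16 (r = 0.530).

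Outside the family, miR-181a was most like miR-28 (r = 0.801), miR-1468 (0.722) and miR-22-3p (0.706). The miRNAs most like miR-181b were miR-93 (r = 0.690), a member of the proliferation-linked miR-17 group, miR-3431 (0.645) and miR-103 (0.645). The 3 most like miR-181c were miR-200a (r = 0.760), the endothelial miR-126-5p (0.670) and miR-200b (0.620). Of these, miR-200a and miR-200b are epithelial miRNAs that also belong to the endocrine list above. For miR-181d they were miR-874 (r = 0.788), miR-93 (0.745) and miR-99a-3p (0.705). Of these lists only miR-93 appeared for more than 1 member.

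The members varied moderately between calves. With diet and library set removed, the SD on the log2 scale was 0.21 for miR-181a, 0.14 for miR-181b, 0.17 for miR-181c and 0.17 for miR-181d, against a median of 0.24 over the 419 miRNAs. Low miRNAs vary more, so miRNAs within 2-fold of each member's mean level are the closer comparison. Of 15 such miRNAs 8 varied less than miR-181a, of 16 such 11 varied less than miR-181c, and of 37 such 11 varied less than miR-181b and 18 less than miR-181d.

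Because the family is known from blood and vessel cells and from brain, miRNAs that mark those cells were read in the same fit. That fit called 15 of all 419 miRNAs at FDR < 0.1, or 3.58%. At such a share, 0 calls in lists this short says little about those cells. Of 7 leukocyte miRNAs (such as miR-142-5p, miR-150 and miR-223) 0 passed FDR < 0.1, and their summed level was 965 to 2707 CPM in HI and 800 to 3968 CPM in MOD calves. The most abundant of them was miR-146b, an inflammation-linked miRNA that averaged 790 CPM under HI and 940 CPM under MOD feeding and reached 3090 CPM in 1 calf, followed by miR-142-5p at 508 and 478 CPM. The lymphocyte miRNA miR-150 averaged 9.43 and 8.37 CPM, and the myeloid miR-223 averaged 1.27 and 0.966 CPM. Their log2 fold changes had both signs, from -0.10 for miR-146a and -0.04 for miR-146b to 0.22 for miR-223. Of the endothelial pair miR-126-3p and miR-126-5p 0 passed, with a summed level of 8998 to 14949 CPM in HI and 10836 to 16172 CPM in MOD calves. Of 8 neural miRNAs 3 could be tested and 0 passed. Expression of miR-128 averaged 490 CPM under HI and 441 CPM under MOD feeding (log2 fold change 0.11), that of miR-338 averaged 469 and 542 CPM (-0.21, FDR = 0.106 from limma) and that of miR-9-5p averaged 34.1 and 24.2 CPM (0.28). The other 5, among them the neuronal miR-124a at 0 to 4.06 CPM, were too low to be tested. Of 3 red blood cell miRNAs 0 passed in limma, and they had both signs. The log2 fold change was 0.55 for miR-451 (FDR = 0.190 from limma) and 0.46 for miR-144 (FDR = 0.115), which averaged 159 and 5.44 CPM under HI feeding and 102 and 3.43 CPM under MOD feeding. The log2(CPM + 1) scale understates the change of a miRNA as low as miR-144, and tests on recovered reads are not given for this list. For miR-486, by far the most abundant of the 3 at 17581 CPM under HI and 20807 CPM under MOD feeding, it was -0.27 (FDR = 0.274 from limma). Of the 7 endocrine miRNAs 0 passed. The median log2 fold changes of the 5 lists were 0.10, -0.03, 0.11, 0.46 and -0.0094 in this order, against 0.02 over all miRNAs tested, and apart from the endothelial pair each list held members of both signs. The part of these cells in the levels of the family was not tested.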

How the data were processed

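The authors sequenced small RNA from 30 anterior pituitaries. They trimmed adapters (Cutadapt), discarded reads outside the size range of miRNAs and those of other short RNA classes, and profiled miRBase bovine miRNAs using miRDeep2, with ARS-UCD1.2 as the genome. What was deposited is a normalized signal, namely CPM divided by TMM factors, in place of raw counts. How reads matching more than 1 mature miRNA were divided is not given in the sources used here. The commonest nonzero value in a library was taken as 1 read, and dividing by it recovered the reads. At least 94.8% of values up to 200 reads were whole within 0.001 reads in every library.

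HI and MOD calves were grouped by their labels and compared with limma 3.58.1 in R 4.3.3 (eBayes with trend) on log2(CPM + 1), a scale that understates changes of low miRNAs, for the 419 miRNAs passing filterByExpr. Thresholds followed the study's methods (edgeR, FDR < 0.1, fold change > 1.5). Adjusted p-values cover all 419. In simulated data for these 419 miRNAs, with 200 changed by 1.5-fold, 184 were called in the right direction, with 7 false calls. With 200 changed by 1.2-fold, 110 were called in the right direction. The simulations changed many more miRNAs than the 15 called in the data, so their rates of detection need not hold for the data. Permutation tests were two-sided, with 100000 resamples or exact where stated. The members, marker lists and library sets were chosen with earlier results of these data known; the order and spread tests were added after their values were seen. The miRNAs named are the members, listed markers, the 3 closest by correlation and neighbours in level. The labels do not say whether p-values cover more than the spread between these calves. Alternatives were edgeR 4.0.16 and DESeq2 1.42.0 on recovered reads rounded to whole numbers, other scalings, a pseudocount of 0.1, no filter, blocks, a covariate, and each calf left out. Reads per library (6650492 to 11086524) make 3 reads, the limit a count of 0 allows, worth 0.266 to 0.419 CPM, for counting error only.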

Additional observations from a re-analysis of the deposited data

How the results depend on the processing

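No member passed FDR < 0.1 under any of 11 alternatives or in the 30 fits without 1 calf. The lowest FDR was 0.194, for miR-181c with upper quartile factors (log2 fold change -0.17), the one setting in which a member had an unadjusted p under 0.05. Signs of differences near 0 changed, and the cause was not tested. The values of miR-181b and miR-181d turned positive with edgeR, total counts and library sizes without the 5 most abundant miRNAs. They also did so with a code inside the label number as a block and with red blood cell miRNAs as a covariate. In this order miR-181b became 0.0047, 0.059, 0.062, 0.027 and 0.014, and miR-181d 0.0062, 0.051, 0.054, 0.015 and 0.037. That covariate was the log2 of the summed CPM of miR-451, miR-144 and miR-486, and so followed mostly miR-486. Expression of miR-486 averaged 17581 CPM under HI and 20807 CPM under MOD feeding, against 159 and 102 CPM for miR-451. Its log2 fold change (-0.27) had the opposite sign to those of miR-451 and miR-144. With the covariate miR-181c was 0.00022, and the part of red blood cells in this was not tested. The values of miR-181a ran from -0.17 with upper quartile factors to -0.0068 when the 5 most abundant miRNAs were left out of library sizes. Blocking on the label code gave -0.020 for miR-181a and -0.023 for miR-181c, against -0.073 for each without the block. The ranges group calves by their label numbers, and HI and MOD calves were unevenly spread over them. What the ranges stand for is not given in the labels, and their part in the differences was not tested. Leaving out 1 calf gave -0.11 to -0.050 for miR-181a, -0.028 to 0.020 for miR-181b, -0.092 to -0.039 for miR-181c and -0.034 to 0.013 for miR-181d.

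Within the 9 libraries the log2 ratio differences of miR-181a to miR-181b, miR-181c and miR-181d were 0.017, 0.18 and 0.15, and within the 21 that of miR-181b to miR-181d was -0.047, against 0.14 in the 9, none past 0.05. Leaving out 1 calf gave -0.082 to -0.043 for miR-181a/miR-181b, -0.034 to 0.022 for miR-181a/miR-181c, -0.090 to -0.037 for miR-181a/miR-181d, 0.032 to 0.090 for miR-181b/miR-181c, -0.0084 to 0.029 for miR-181b/miR-181d and -0.089 to -0.018 for miR-181c/miR-181d. On total counts the correlation of miR-181a and miR-181c in the 21 libraries was -0.114, that of miR-181a and miR-181b stayed past 0.05 in both sets (0.599 and 0.934), that of miR-181a and miR-181d in the 9 passed by rho alone (0.867), and the differences in spread of miR-181b and miR-181c, added after seeing the data, were 0.022 and -0.0093.

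The number of miRNAs past FDR < 0.1 was 15. It was 24 with DESeq2, 29 with upper quartile factors, 11 with the red blood cell covariate and 12 after blocking on the label code. It was 14 to 21 under the other 7 alternatives, and 14 to 21 without 1 calf. Past both thresholds it was 2, against 4 with edgeR and with DESeq2, 3 with no filter on low counts and 1 with upper quartile factors. It was 0 in limma with the red blood cell covariate (43 at an unadjusted p under 0.05), and 2 to 4 without 1 calf. No paired analysis was possible because no number in the labels ties a HI calf to a MOD calf. The labels do not name the farm, sire or block of a calf, so the main fit and the permutation tests treated calves as independent.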

Other observations

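The spread between calves of 1 diet was compared after the values were seen. For miR-181a the mean absolute deviation from the diet's median, on the log2 scale, was 0.11 in HI and 0.20 in MOD calves (two-sided permutation test, p = 0.0472, adjusted p = 0.189 over the 4 members). For miR-181b it was 0.08 and 0.13 (permutation p = 0.153, adjusted p = 0.306), for miR-181c 0.14 and 0.11 (permutation p = 0.434, adjusted p = 0.579) and for miR-181d 0.14 and 0.13 (permutation p = 0.760, adjusted p = 0.760). None passed 0.05 after adjustment. The differences depended on the scaling, since on total counts those of miR-181b and miR-181c changed sign (0.02 and -0.0093, HI minus MOD) and that of miR-181a was -0.04 (permutation p = 0.352).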
